A study of Chlamydomonas reinhardtii with 18 samples.

Results

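Green algal cells that had spent 60 min in medium without iron were compared with cells of the same experiment sampled while still growing, before they were washed. The organism was Chlamydomonas reinhardtii strain CC-4532, a unicellular alga that swims with a pair of cilia and grows on light, on acetate or on both. The comparison uses 4 of the 18 samples, a pair of cultures at 60 min and a pair before the wash, and 12580 of the 17741 genes in the deposited table. A gene entered when it had at least 1 FPKM (a transcript level corrected for transcript length and sequencing depth) in at least 2 of the 9 time columns.

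The 60 min cells had been collected in mid-logarithmic growth in a centrifuge (5 min, 2500 g), rinsed with 2 changes of TAP from which Fe-EDTA was left out, and kept in the same iron-free medium. TAP is a Tris, acetate and phosphate medium. The pre-wash cells came from the growing cultures. All cultures were grown at 24 °C in constant light of some 90 µmol photons per m2 per s. How much iron the growth medium held is not stated in the labels. No samples analysed here were spun, washed and returned to medium with iron, so the loss of iron, the handling and the fresh medium cannot be told apart in any difference below. The deposited table holds 1 FPKM value per gene and time for both cultures together. No value therefore has a replicate error, no test was possible and the depth is unknown. "Higher" and "lower" describe these combined values only.

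As background, Chlamydomonas takes up ferric iron through a plasma membrane ferroxidase and permease, helped by a ferric reductase and secreted iron-binding proteins. When CO2 is short, it induces a CO2-concentrating mechanism of bicarbonate channels and carbonic anhydrases. Acetate enters metabolism as acetyl-CoA, and the glyoxylate cycle, with isocitrate lyase and malate synthase, turns it into precursors of sugars.

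At 60 min, 509 genes (4.05%) were at least 2-fold higher than before the wash and 460 genes (3.66%) were at least 2-fold lower, on the scale of log2(FPKM + 1). That makes 7.7% of genes 2-fold apart in either direction. A pseudocount of 1 is added there, which understates differences of weakly expressed genes. Differences of 4-fold or more were seen for 68 higher and 56 lower genes. The median difference over all genes was 0.01 on the log2 scale, and 78.0% of genes lay within 1.5-fold. The robust SD of the differences was 0.42, against 0.17 between the 10 and 15 min columns, where 7 genes were 2-fold apart. That pair had the smallest spread of the 8 pairs of neighbouring columns, and the pre-wash and post-wash pair the largest, 0.44. The higher genes held 7.17% of all FPKM at 60 min and 2.47% before the wash, and the lower genes held 0.954% at 60 min and 3.41% before the wash. Counts for gene lists are of the members that passed the filter on low values. All listed genes passed for iron assimilation, the CO2-concentrating mechanism, acetate use, photorespiration and the selenoproteins, while 13 of 15 fermentation genes, 16 of 17 tricarboxylic acid cycle genes, 20 of 36 nitrogen genes and 33 of 42 sulfate genes did. Just inside the threshold lay LCYE1, with 69.8 FPKM at 60 min and 34.4 before the wash, and BIP2, with 19.0 FPKM at 60 min and 39.1 before the wash. Just outside lay CGL1, with 31.7 FPKM at 60 min and 15.4 before the wash, and MAE12, with 1.85 FPKM at 60 min and 4.69 before the wash.

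**Figure D1:**
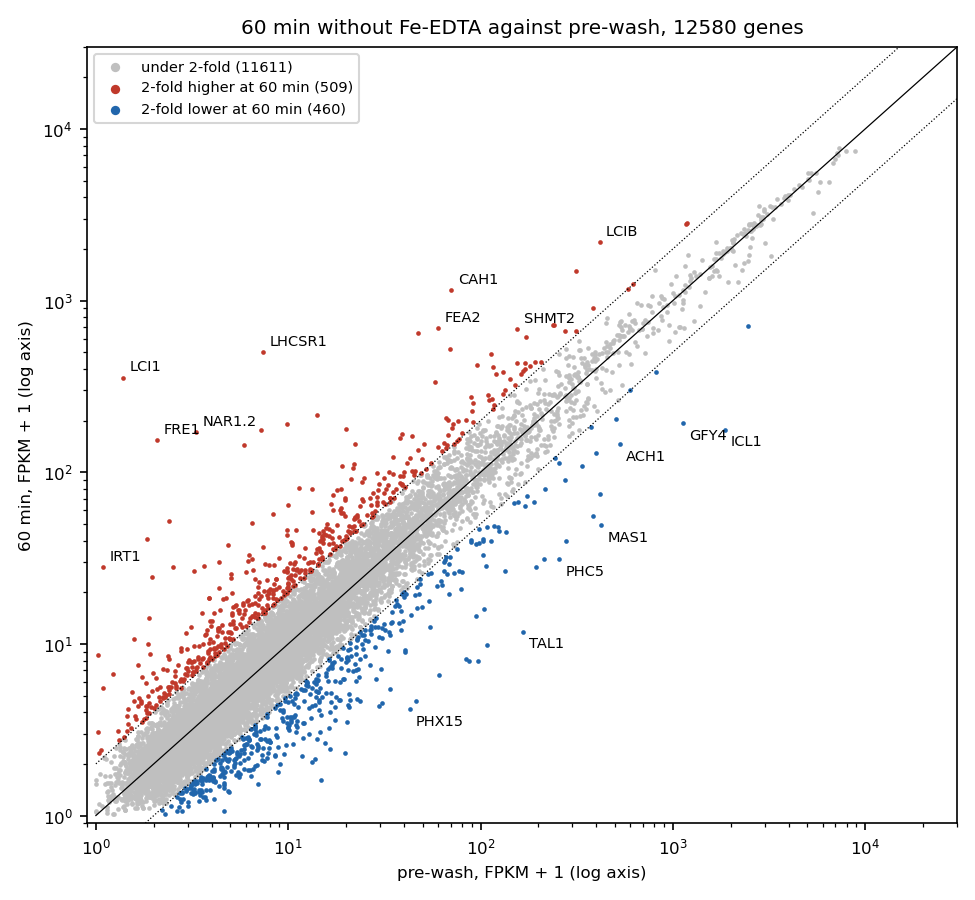
Level of each of 12580 genes at 60 min (vertical axis) against its level before the wash (horizontal axis), both as FPKM + 1 on log axes, 1 combined value per time. The solid line marks equal levels and the dotted lines mark 2-fold; 509 red genes lie above and 460 blue genes below, with LCI1, FRE1, LHCSR1 and NAR1.2 furthest above and ICL1, MAS1, TAL1 and PHX15 among those furthest below.

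Genes of the CO2-concentrating mechanism had the largest median difference of all lists, 2.78 on the log2 scale. Of 17 members kept, 15 were at least 2-fold higher at 60 min and 0 lower. LCI1, a plasma membrane protein of inorganic carbon uptake, had 355 FPKM at 60 min and 0.390 FPKM before the wash, a log2 difference of 8.00 and the largest of all 12580 genes. NAR1.2, the chloroplast envelope bicarbonate channel also called LCIA, had 170 FPKM at 60 min and 2.33 FPKM before the wash. HLA3, an ABC transporter of bicarbonate at the plasma membrane, had only 8.94 FPKM at 60 min and 3.47 FPKM before the wash. Every transport gene named here was thus higher, over a wide range of sizes.

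The carbonic anhydrases, which interconvert CO2 and bicarbonate, were higher too. CAH1, the periplasmic enzyme, had 1152 FPKM at 60 min and 69.5 FPKM before the wash, a 16.6-fold ratio. The mitochondrial enzymes CAH4 and CAH5 had 213 and 191 FPKM at 60 min and 13.1 and 8.81 FPKM before the wash. CAH3, the thylakoid lumen enzyme, was 2.82-fold higher, with 431 FPKM at 60 min and 153 FPKM before the wash. CAH4 and CAH5 are near-identical neighbours, as are the envelope proteins CCP1 and CCP2 to each other in sequence, so the division of reads within each pair is uncertain.

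The abundant stromal proteins LCIB and LCIC, which act around the pyrenoid to recapture CO2, were already well expressed in growing cells. LCIB had 2191 FPKM at 60 min and 415 FPKM before the wash. LCIC had 1485 FPKM at 60 min and 312 FPKM before the wash. LCR1, a Myb-type regulator of low-CO2 genes, had 25.2 FPKM at 60 min and 5.00 FPKM before the wash. The members under 2-fold were a gene named LCI11 (Cre16.g663400), with a log2 difference of 0.37, and LCIE, with 1.05 FPKM at 60 min and 0.404 FPKM before the wash.

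The 9 time columns show that the members reached these levels along different courses. LCI1, CAH1, CAH4, CAH5 and CCP1 had their highest value at 240 min, the last time. NAR1.2 had passed its maximum of 369 FPKM at 15 min. LCIB and LCIC were highest at 30 min, with 3477 and 2165 FPKM. No member had its highest value at 60 min, against 11.1% of all genes. Before the wash, 12 of 17 had their lowest of all 9 values, against 9.83% of all genes. That count follows in part from 15 of 17 being called higher than before the wash.

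A wider set of LCI genes, identified in earlier work as low-CO2 inducible and listed here after their values were seen, was mixed. Of 27 kept, 12 were higher and 3 lower. LCI1, LCI23 and the genes named LCI11 are shared with the list of the CO2-concentrating mechanism. LCI9 had 105 FPKM at 60 min and 20.8 FPKM before the wash. In contrast LCI26, annotated as a U-box protein, had 1.00 FPKM at 60 min and 8.08 FPKM before the wash, LCI36 had 3.91 FPKM at 60 min and 13.9 before the wash, and LCI35 had 2.18 FPKM at 60 min and 5.38 before the wash.

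Photorespiration recovers carbon when Rubisco uses oxygen in place of CO2. Of 14 genes of this pathway, listed after their values were seen, 6 were higher and 0 lower. Their median difference was 0.75. PGP1, the phosphoglycolate phosphatase of the first step, had 139 FPKM at 60 min and 58.8 FPKM before the wash. GYD1, glycolate dehydrogenase, had 84.6 FPKM at 60 min and 37.9 FPKM before the wash. GCSP, the P protein of glycine cleavage, had 226 FPKM at 60 min and 89.3 FPKM before the wash. The first, second and glycine-cleavage steps therefore all had a member past 2-fold. Under quantile normalization PGP1, GYD1, SHMT1 and HPR1 were under 2-fold.

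Genes for protection against excess light formed the next group, with 9 of 10 kept members higher, 0 lower and a median of 1.47. LHCSR1, an antenna-type protein that turns excess excitation into heat, had 501 FPKM at 60 min and 6.40 FPKM before the wash, a 78.3-fold ratio, and 60 min was its highest value of the course. LHCSR3.1 and LHCSR3.2 had 39.9 and 50.7 FPKM at 60 min and 0.843 and 1.41 FPKM before the wash. They encode near-identical proteins and the division of reads between them is uncertain. The early light-inducible gene ELI6 had 72.3 FPKM at 60 min and 16.1 FPKM before the wash. ELI2 alone stayed under 2-fold, with a difference of 0.38. PSBS1 and PSBS2 did not pass the filter on low values. OHP2 and ELI3 lay at the threshold and were under 2-fold with quantile or median-of-ratios scaling.

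The antenna and photosystem genes themselves were mostly within 2-fold of their growing levels, with medians below them. Of 21 light-harvesting antenna genes, 1 was higher and 0 lower, with a median of -0.29. The exception was LHCB7, with 15.9 FPKM at 60 min and 5.99 FPKM before the wash. Photosystem I and photosystem II genes had 0 of 10 and 0 of 14 members past 2-fold, with medians of -0.16 and -0.33. In summed FPKM the antenna genes had 30657 at 60 min and 38849 before the wash. Photosystem II genes had 8807 at 60 min and 13117 before the wash. On the log2 scale 18 of the 21 antenna genes were below 0, against 6098 of all 12580 genes. So were 9 of 10 photosystem I and 8 of 14 photosystem II genes. The lowest of the 9 values fell at 60 min in 11 of 21 antenna genes, against 14.6% of all genes. It did so in 9 of 10 photosystem I and 7 of 14 photosystem II genes. Of 10 carotenoid genes, 3 were higher, among them CBH1, a beta-carotene hydroxylase, with 58.9 FPKM at 60 min and 16.0 FPKM before the wash, and BKT1, beta-carotene ketolase, with 15.9 FPKM at 60 min and 4.34 FPKM before the wash. Calvin cycle genes had 1 of 18 higher, the Rubisco activase RCA1, and 2 lower. The lower ones were GAP1 and an FBP1 gene (Cre07.g338451), described further below. Both were listed by symbol, and whether they act in the cycle was not tested. RCA1 was under 2-fold with either scaling.

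**Figure D2:**
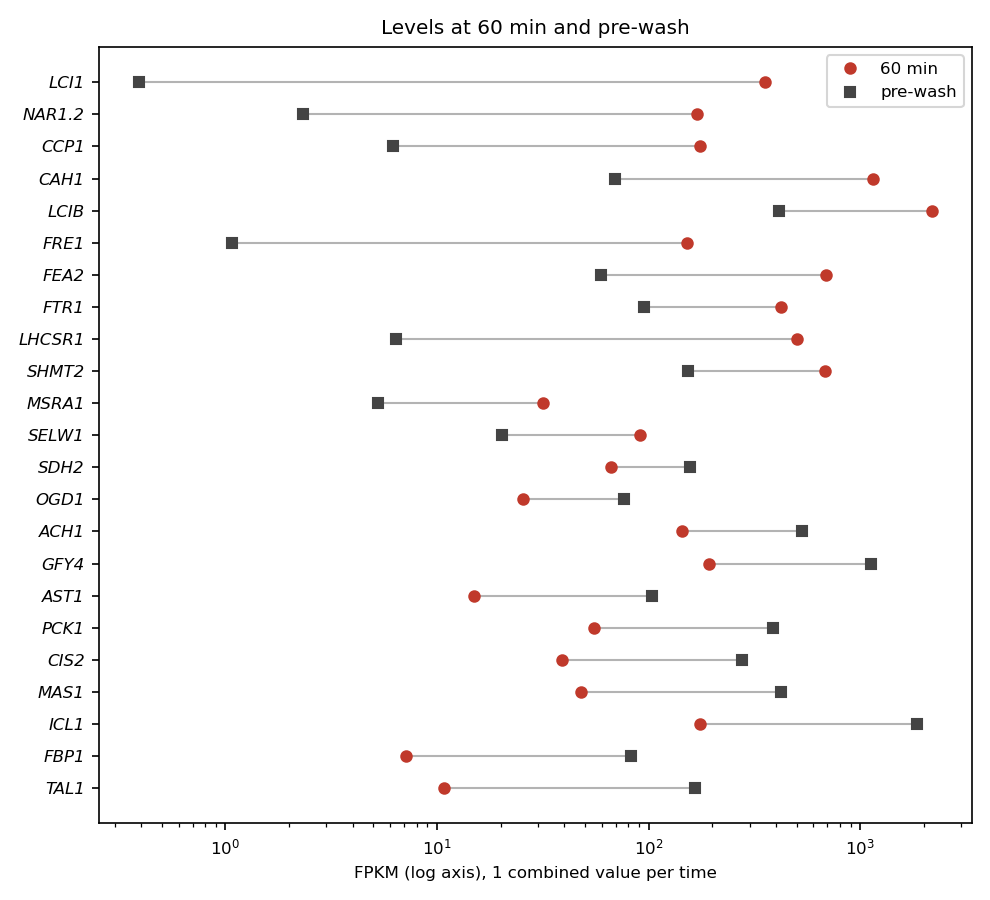
FPKM of 23 genes at 60 min (red circles) and before the wash (dark squares) on a log axis, 1 combined value per time. Genes of CO2 concentration, iron uptake, photoprotection and selenoproteins sit to the right at 60 min, and genes of acetate use and central carbon metabolism, from SDH2 down, sit to the left.

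Of the iron assimilation genes, 9 of 10 were at least 2-fold higher and 1 lower, and the median difference was 1.73. FRE1, the ferric-chelate reductase, had 152 FPKM at 60 min and 1.08 FPKM before the wash. FTR1, the iron permease, had 421 FPKM at 60 min and 94.7 FPKM before the wash, and FOX1, the multicopper ferroxidase that works with it, had 417 FPKM at 60 min and 181 FPKM before the wash. The components of the high-affinity pathway were therefore all higher at 60 min, the reductase by far the most. FOX1 was under 2-fold with quantile normalization.

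The secreted iron-assimilating proteins differed in both level and size of difference. FEA1 was the more abundant, with 2797 FPKM at 60 min and 1167 FPKM before the wash. FEA2 had 691 FPKM at 60 min and 59.3 FPKM before the wash, an 11.7-fold ratio. TEF22, their neighbour on the chromosome and of unknown function, had 373 FPKM at 60 min and 120 FPKM before the wash. The ZIP family transporters IRT1 and IRT2 were also neighbours. IRT1 had 27.1 FPKM at 60 min and 0.0922 FPKM before the wash, and IRT2 had 9.15 FPKM at 60 min and 2.85 FPKM before the wash.

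The course of these genes had not ended at 60 min. FRE1 was at 0.937 FPKM at 15 min, 482 FPKM at 120 min and 913 FPKM at 240 min. IRT1 was at 116 FPKM at 120 min and 379 FPKM at 240 min. No member of the list had its highest value at 60 min, against 11.1% of all genes. The 1 member that was lower, MSD3, a manganese superoxide dismutase, had 3.25 FPKM at 60 min, 11.8 FPKM before the wash and 67.2 FPKM at 240 min. Ferritin, the iron store, was under 2-fold on the log2(FPKM + 1) scale, with FER1 at 485 FPKM at 60 min and 254 FPKM before the wash. The weakly expressed FER2 had 0.557 FPKM at 60 min and 0.142 FPKM before the wash, a plain ratio of 3.94, and it was past 2-fold with a pseudocount of 0.1. Among ferredoxins, small iron-sulfur electron carriers listed after their values were seen, FDX6 had 144 FPKM at 60 min and 49.7 FPKM before the wash, and FDX3 had 197 FPKM at 60 min and 75.4 FPKM before the wash. The other 9 kept ferredoxins were under 2-fold on the log2(FPKM + 1) scale. Among them the weakly expressed FDX9 and FDX2 had 0.1075 and 0.239 FPKM at 60 min and 0.605 and 0.716 FPKM before the wash. Of the 11 kept, 6 lay above 0 and 5 below.

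Selenoproteins, which carry selenocysteine in place of a cysteine and mostly serve redox reactions, were raised almost throughout. The list was made after their values were seen. Of 9 kept, 8 were at least 2-fold higher and 0 lower, and the median difference was 1.56. MSRA1, a methionine sulfoxide reductase, had 31.8 FPKM at 60 min and 5.24 FPKM before the wash. SELW1 had 90.7 FPKM at 60 min and 20.3 FPKM before the wash. NTR1, a thioredoxin reductase, had 35.2 FPKM at 60 min and 13.5 FPKM before the wash. The remaining member, SELK1, had 72.1 FPKM at 60 min and 41.2 FPKM before the wash. Of the 9, 0 had their highest value at 60 min, against 11.1% of all genes. MSRA1 and SELW1 were highest at 30 min, with 42.8 and 148 FPKM. SELW2 was highest at 5 min, with 36.9 FPKM, and had 3.81 FPKM at 60 min and 0.670 FPKM before the wash. MSRA1 and SELW1 were back near their growing level at 120 min, at 5.45 and 19.3 FPKM, while GPX1 and SELT1 were still above it, at 7.98 and 15.6 FPKM, against 4.11 and 9.27 FPKM before the wash.

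The wider defence against reactive oxygen had 11 of 64 members higher and 4 lower, with a median of 0.27. It includes MSRA1, NTR1 and GPX1 of the selenoproteins. NRX2, a nucleoredoxin, had 108 FPKM at 60 min and 18.1 FPKM before the wash. MDAR1, listed as a pyridine nucleotide-disulphide oxidoreductase, had 78.2 FPKM at 60 min and 16.9 FPKM before the wash. Among those lower were both catalases, with CAT1 at 62.1 FPKM at 60 min and 170 FPKM before the wash. NTR2, a thioredoxin reductase outside the selenoprotein list, was lower too, with 1.52 FPKM at 60 min and 7.85 FPKM before the wash, opposite in direction to NTR1.

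Among the abundant or listed genes with their highest value of the course at 60 min were SHMT2, METE and FAP23. LHCSR1, HSP22F, Cre14.g626750 and BTA1 were others, and 11.1% of all genes were highest there. SHMT2, a serine hydroxymethyltransferase, had 680 FPKM at 60 min and 154 FPKM before the wash, and it was at 214 FPKM at 30 min and 239 FPKM at 120 min. METE, the cobalamin-independent methionine synthase, which was picked after its values were seen, had 663 FPKM at 60 min and 274 FPKM before the wash. FAP23, listed as a flagellar protein and as a cobalamin adenosyltransferase, had 336 FPKM at 60 min and 56.7 FPKM before the wash. SHMT1, another serine hydroxymethyltransferase, was highest at 30 min, with 389 FPKM, and had 374 FPKM at 60 min and 162 FPKM before the wash.

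**Figure D3:**
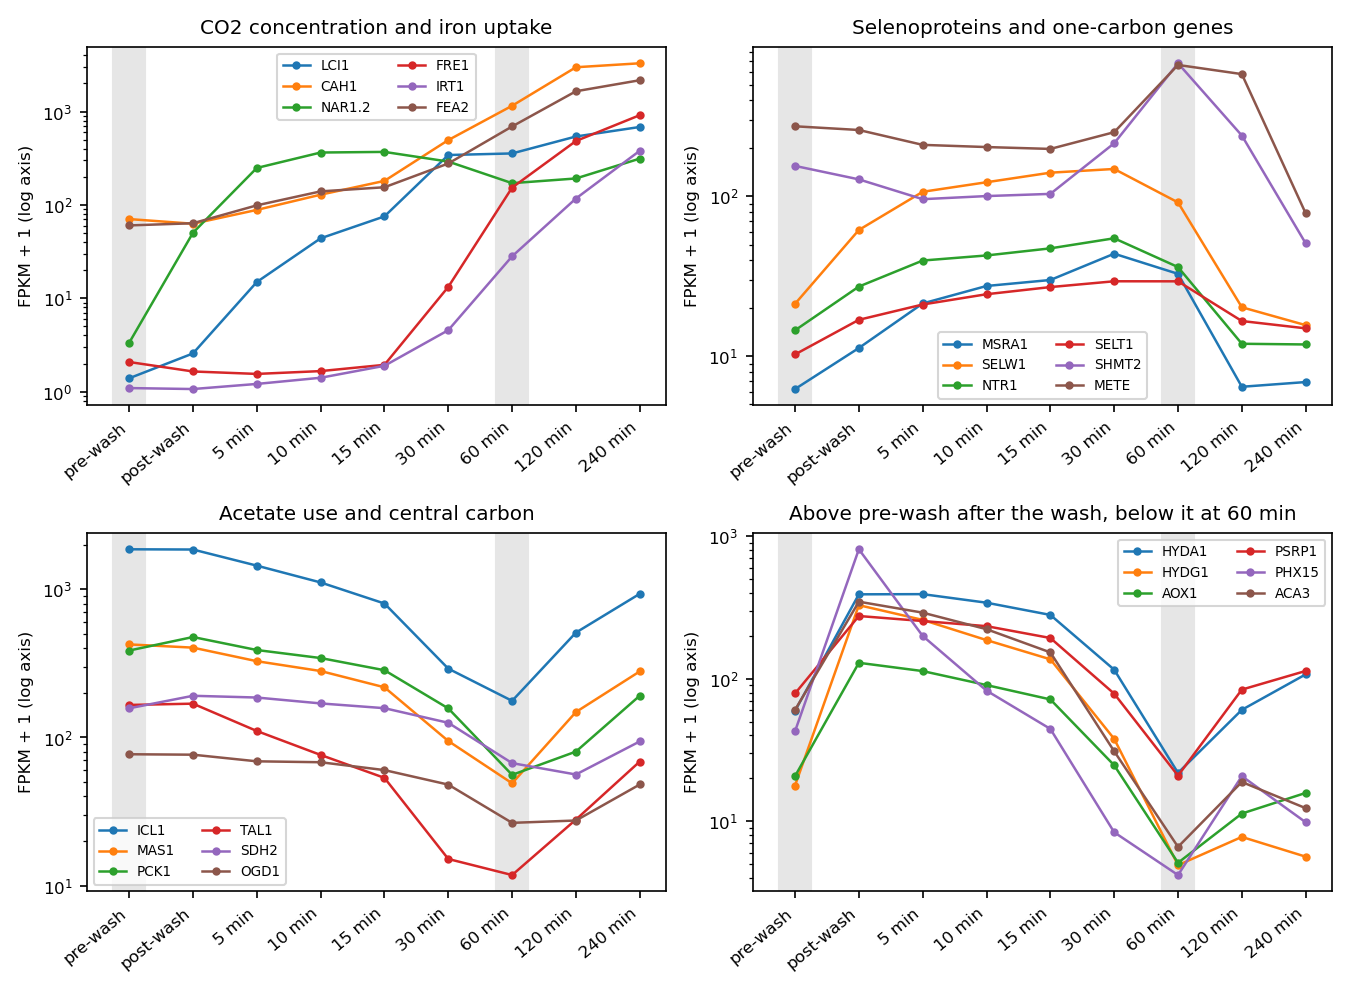
FPKM + 1 on log axes for 24 genes at the 9 sampling times, 1 combined value per time, with grey bands at the pre-wash and 60 min columns. CO2 and iron genes are higher at 60 min than before the wash (FRE1 at 152 and 1.08 FPKM), ICL1 and the other acetate genes are near their lowest at 60 min, and the genes at lower right stand above their pre-wash level directly after the wash and below it at 60 min.

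Most genes for the use of acetate were lower. Of 13 kept genes of acetate and glyoxylate metabolism, 8 were at least 2-fold lower at 60 min and 1 was higher. Their median was -1.51. Of the 13, 10 had their lowest of the 9 values at 60 min, against 14.6% of all genes and 60.9% of the lower genes. ICL1, isocitrate lyase, the entry of the glyoxylate cycle, had 176 FPKM at 60 min and 1861 FPKM before the wash, 10.6-fold lower. MAS1, malate synthase, its second specific enzyme, had 48.1 FPKM at 60 min and 424 FPKM before the wash. CIS2, a citrate synthase, had 38.9 FPKM at 60 min and 277 FPKM before the wash. MAS1 and CIS2 were thus 8.81-fold and 7.13-fold lower. Summed over the list, FPKM was 688 at 60 min and 4049 before the wash.

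Some of the steps around the cycle were lower too. ACS3, an acetyl-CoA synthetase, which activates acetate, had 73.6 FPKM at 60 min and 416 FPKM before the wash. PCK1, phosphoenolpyruvate carboxykinase, which leads from oxaloacetate towards sugars, had 54.9 FPKM at 60 min and 385 FPKM before the wash. ACH1, aconitase, an iron-sulfur enzyme, had 144 FPKM at 60 min and 530 FPKM before the wash. Under 2-fold on the log2(FPKM + 1) scale were ACK1, ICL3, ACS1 and ACK2, with differences of -0.96, -0.54, -0.32 and -0.27. The weakly expressed ACK1 had 0.535 FPKM at 60 min and 1.99 FPKM before the wash, 3.72-fold lower as a plain ratio. The 1 member that was higher was ICL2, without a product in the table, with 74.8 FPKM at 60 min and 30.3 FPKM before the wash. The levels had partly returned by 240 min, where ICL1 was at 931 and MAS1 at 278 FPKM.

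The table gives no product for the 5 GFY genes, which were listed after their values were seen. All 5 lay below their growing level and had their lowest value of the course at 60 min, against 14.6% of all genes. GFY3, an abundant transcript, had 709 FPKM at 60 min and 2467 FPKM before the wash. GFY4 had 193 FPKM at 60 min and 1127 FPKM before the wash. GFY5 was under 2-fold, with a log2 difference of -0.83.

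The tricarboxylic acid cycle, listed after its values were seen, had 10 of 16 genes lower and 0 higher, with a median of -1.16. It shares ACH1 with the acetate list. IDH3, an NADP-dependent isocitrate dehydrogenase, had 44.4 FPKM at 60 min and 124 FPKM before the wash. The NAD-dependent isocitrate dehydrogenase genes IDH1 and IDH2 were under 2-fold, with differences of -0.76 and -0.06. OGD1, a subunit of 2-oxoglutarate dehydrogenase, had 25.5 FPKM at 60 min and 76.1 FPKM before the wash. SDH2, the iron-sulfur subunit of succinate dehydrogenase, had 66.1 FPKM at 60 min and 156 FPKM before the wash, and SDH3 and SDH4 were lower as well. Several subunits of both dehydrogenase complexes were thus lower, and CIS1, MDY4 and IDH2 were nearest to their growing levels, with differences of -0.36, -0.26 and -0.06. Respiratory chain and ATP synthase genes had 4 of 85 lower and 1 higher, while 3.66% and 4.05% of all genes were. Of the 4 lower, 3 were these succinate dehydrogenase genes. AOX1, an alternative oxidase, had 4.10 FPKM at 60 min, 19.7 FPKM before the wash and 129 FPKM directly after it. AOX2, the other alternative oxidase, was under 2-fold, with 1.85 FPKM at 60 min and 1.37 FPKM before the wash.

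Single enzymes of sugar phosphate and amino acid metabolism included the gene furthest below its growing level. TAL1, transaldolase, had 10.8 FPKM at 60 min and 165 FPKM before the wash, a log2 difference of -3.81 and the lowest of all genes. A gene named FBP1 (Cre07.g338451), which the table gives no product, had 7.15 FPKM at 60 min and 82.7 FPKM before the wash. AST1, aspartate aminotransferase, had 14.9 FPKM at 60 min and 104 FPKM before the wash. GAP1, a glyceraldehyde 3-phosphate dehydrogenase, had 32.1 FPKM at 60 min and 102 FPKM before the wash, whereas the family member GAP3 had 1581 FPKM at 60 min and 1149.8 FPKM before the wash. The genes ACO3 and CGL108, without a product in the table, had log2 differences of -2.64 and -2.72.

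Genes of starch breakdown were lower in part and those of synthesis were split. Both lists were made after their values were seen. In breakdown 6 of 13 were lower and 0 higher, with a median of -0.90. AMYA1, an alpha-amylase, had 8.19 FPKM at 60 min and 39.6 FPKM before the wash. STA4, a starch phosphorylase counted here under breakdown, had 25.5 FPKM at 60 min and 63.8 FPKM before the wash. The other STA genes stand in the synthesis list, so its place among the lower breakdown genes is uncertain. PHO2, also a starch phosphorylase, had 76.6 FPKM at 60 min and 76.7 FPKM before the wash. GWD1, a dikinase that phosphorylates glucan for its degradation, had 3.30 FPKM at 60 min and 10.3 FPKM before the wash.

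In synthesis 2 of 16 genes were higher and 2 lower, with a median of 0.21. STA2, granule-bound starch synthase, had 410 FPKM at 60 min and 115 FPKM before the wash. SBE3, a branching enzyme, had 191 FPKM at 60 min and 70.9 FPKM before the wash. SSS2, a soluble starch synthase, was lower, with 28.8 FPKM at 60 min and 63.3 FPKM before the wash. The small and large subunit genes of ADP-glucose pyrophosphorylase, STA6 and STA1, were near their growing level, with differences of 0.21 and 0.20.

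**Figure D4:**
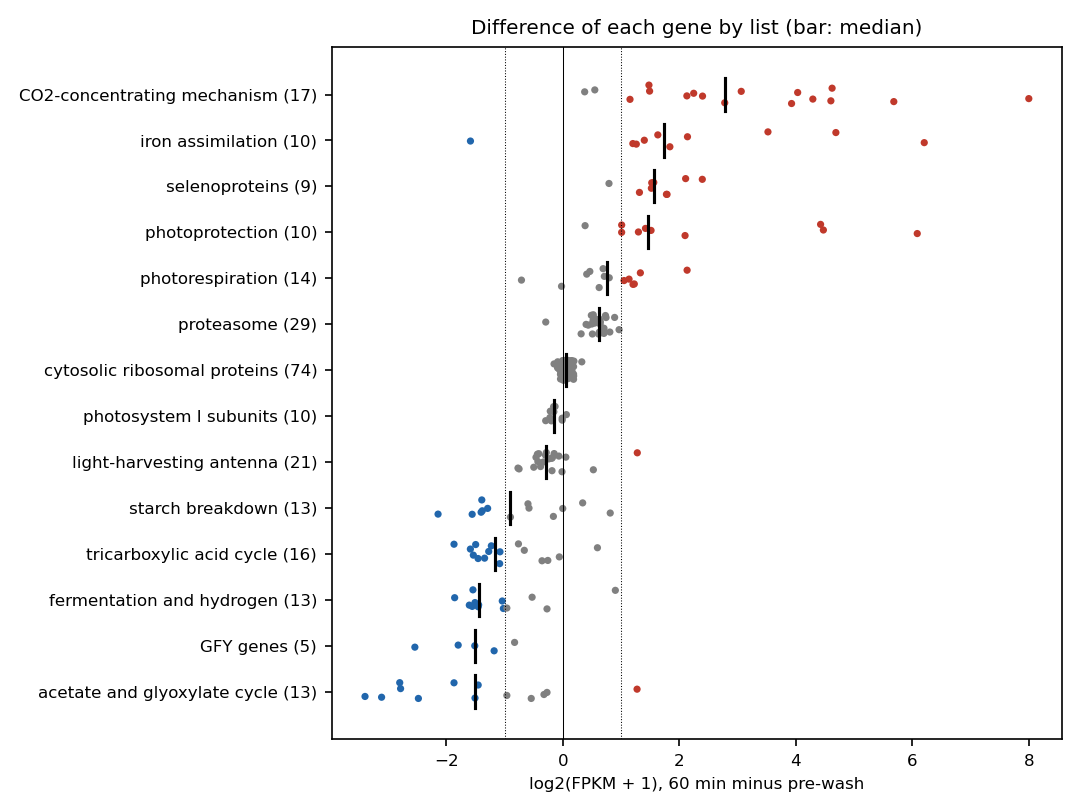
Log2(FPKM + 1) at 60 min minus before the wash for every kept gene of 14 lists (number of genes in brackets), with points coloured where at least 2-fold and a black bar at the median. The CO2-concentrating mechanism has its median at 2.78 and the acetate and glyoxylate cycle at -1.51, while cytosolic ribosomal proteins cluster at 0.05.

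Fermentation and hydrogen genes, which serve metabolism without oxygen, were at least 2-fold lower in 9 of 13 cases and 2-fold higher in 0, with a median of -1.45. HCP2 and HYDEF1 were under 2-fold with quantile normalization. PAT1 and PAT2, phosphate acetyltransferases, belong to this list and to the acetate list. HYDA1, the iron hydrogenase, had 20.8 FPKM at 60 min and 58.5 FPKM before the wash. HYDG1, its assembly factor, had 3.91 FPKM at 60 min and 16.8 FPKM before the wash. Directly after the wash both had stood higher, with HYDA1 at 391 and HYDG1 at 328 FPKM. PAT1, PAT2 and PDC3 were then nearer to their pre-wash levels, with 15.1, 12.1 and 24.5 FPKM directly after the wash and 13.4, 9.70 and 19.4 FPKM before it. PFL1, pyruvate-formate lyase, was above its growing level, with 338 FPKM at 60 min, 181 FPKM before the wash and 1157 FPKM directly after it.

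A level above that of growing cells directly after the wash and below it at 60 min was also seen in other named genes. ACA3, a plasma membrane P-type ATPase, had 5.6 FPKM at 60 min, 59.5 FPKM before the wash and 347 FPKM directly after it. PHX15, by its symbol a prolyl hydroxylase gene, had 3.18 FPKM at 60 min, 41.8 FPKM before the wash and 811 FPKM directly after it. PSRP1, a plastid ribosome-associated protein, had 19.9 FPKM at 60 min, 77.9 FPKM before the wash and 275 FPKM directly after it. PHC5, a cell wall pherophorin, differed in course, with 30.3 FPKM at 60 min, 255 FPKM before the wash and 219 FPKM directly after it. Of 42 kept pherophorin and prolyl hydroxylase genes, 4 were lower and 0 higher.

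Genes of protein synthesis were mostly within 2-fold of their growing level. Of 74 cytosolic ribosomal protein genes, 0 were 2-fold apart and their differences ran from -0.15 to 0.32. Plastid ribosomal proteins had 1 of 37 lower, PSRP1, and mitochondrial ones 0 of 37, with medians of 0.24 and 0.37. With quantile normalization the plastid median was 0.03. Of the mitochondrial genes 36 of 37 lay above 0, against 6482 of all 12580 genes. Their highest value of the course fell at 60 min in 20, against 11.1% of all genes. Aminoacyl-tRNA synthetases had 0 of 27 apart, with a median of 0.39, 23 above 0 and 18 highest at 60 min. Genes of DNA replication and the cell cycle had 0 of 56 apart, with a median of 0.15. Tubulins, histones and the nucleolar and RNA processing list had 0 members apart of 5, 10 and 23 kept. Guanylate and adenylate cyclases had 1 of 60 higher and 1 lower, and matrix metalloproteinases 2 of 17 lower.

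Proteasome genes shifted together by less than 2-fold. Their median was 0.63, and 28 of 29 lay above 0, against 6482 of all 12580 genes. Of the 29, 25 had their highest value of the course at 60 min, against 11.1% of all genes. RPN7, a regulatory subunit, had 54.7 FPKM at 60 min and 27.5 FPKM before the wash. Cilia genes shifted the other way. Only 3 of 315 were higher and 6 lower, while 4.05% and 3.66% of all genes were. Yet 269 of 315 lay below 0, against 6098 of all 12580 genes, with a median of -0.32. Of the 315, 228 had their lowest value of the course at 60 min, against 14.6% of all genes. FAP15, a flagella-associated protein, was the lowest, with 1.98 FPKM at 60 min and 11.8 FPKM before the wash.

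Chaperones had 8 of 61 genes higher and 4 lower, with a median of 0.43. HSP70A, the cytosolic HSP70, had 902 FPKM at 60 min and 381 FPKM before the wash. HSP22F, a small heat shock protein, had 715 FPKM at 60 min and 236 FPKM before the wash. CDJ3, a chloroplast DnaJ-like protein, had 42.0 FPKM at 60 min and 8.91 FPKM before the wash. Those lower were weakly expressed except for BIP2, an HSP70 of the endoplasmic reticulum.

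Lipid genes had 6 of 33 members higher and 0 lower, with a median of 0.36. BTA1, which makes the betaine lipid of this alga, had 205 FPKM at 60 min and 64.8 FPKM before the wash. The desaturase genes FAD2, FAD3 and FAD7 had 37.6, 119 and 435 FPKM at 60 min and 14.1, 48.5 and 192 FPKM before the wash. Sulfate assimilation had 4 of 33 higher and 1 lower. Its higher members included the sulfate transporters SLT1, with 23.1 FPKM at 60 min and 4.05 FPKM before the wash, and SULTR2, with 86.6 FPKM at 60 min and 23.1 FPKM before the wash. SAT3 was lower, with 11.4 FPKM at 60 min and 29.8 FPKM before the wash.

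Nitrogen assimilation had 2 of 20 genes higher and 3 lower. The higher ones were NAR1.2, shared with the CO2 list, and the weakly expressed nitrite reductase NII1. NAR1.3, a formate and nitrite transporter family member, was lower, with 3.34 FPKM at 60 min and 12.3 FPKM before the wash. Among 12 copper-responsive genes, 1 was higher, CYC6, cytochrome c6, with 4.51 FPKM at 60 min and 0.0844 FPKM before the wash. Of 10 genes for iron-sulfur cluster assembly, 1 was higher, an NFU1 gene (Cre18.g748447) with 56.8 FPKM at 60 min and 18.3 FPKM before the wash. Of 26 tetrapyrrole genes, 1 was higher, the ferrochelatase FeC, which was under 2-fold with quantile normalization.

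Several genes without a symbol or product were also far from their growing level. Cre07.g336800 had 644 FPKM at 60 min and 46.2 FPKM before the wash. Cre14.g626750 had 519 FPKM at 60 min and 68.3 FPKM before the wash, with 142 FPKM at 120 min. Cre26.g756747 had 23.4 FPKM at 60 min and 0.969 FPKM before the wash, after a maximum of 191 FPKM at 10 min. These thus included a sustained, a transient and an early course. On the lower side the neighbours Cre13.g603500 and Cre13.g603550 had 6.97 and 6.93 FPKM at 60 min and 86.4 and 96.4 FPKM before the wash. Cre16.g652000 had 8.85 FPKM at 60 min and 107 FPKM before the wash.

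Over the whole course, 60 min was the time of the lowest value for 280 of the 460 lower genes (60.9%), against 14.6% of all genes. It was the time of the highest value for 190 of the 509 higher genes (37.3%), against 11.1% of all genes. These genes were chosen by their 60 min value, so the excess is a description. The median level of the higher genes was 25.2 FPKM at 60 min and 7.63 before the wash, and it was 15.1 at 120 min and 15.6 at 240 min. The median level of the lower genes was 2.94 FPKM at 60 min, 10.7 before the wash and 15.9 directly after it, and it was 6.32 at 120 min and 6.73 at 240 min. In the median both groups lay closer to their growing level at 240 min than at 60 min. The choice of genes by their 60 min value favours that, so it does not measure a recovery. At 240 min, 114 of the higher genes (22.4%) had their highest value, against 19.6% of all genes. Of the lower genes, 24 (5.22%) had their lowest value there, against 19.3% of all genes.

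**Figure D5:**
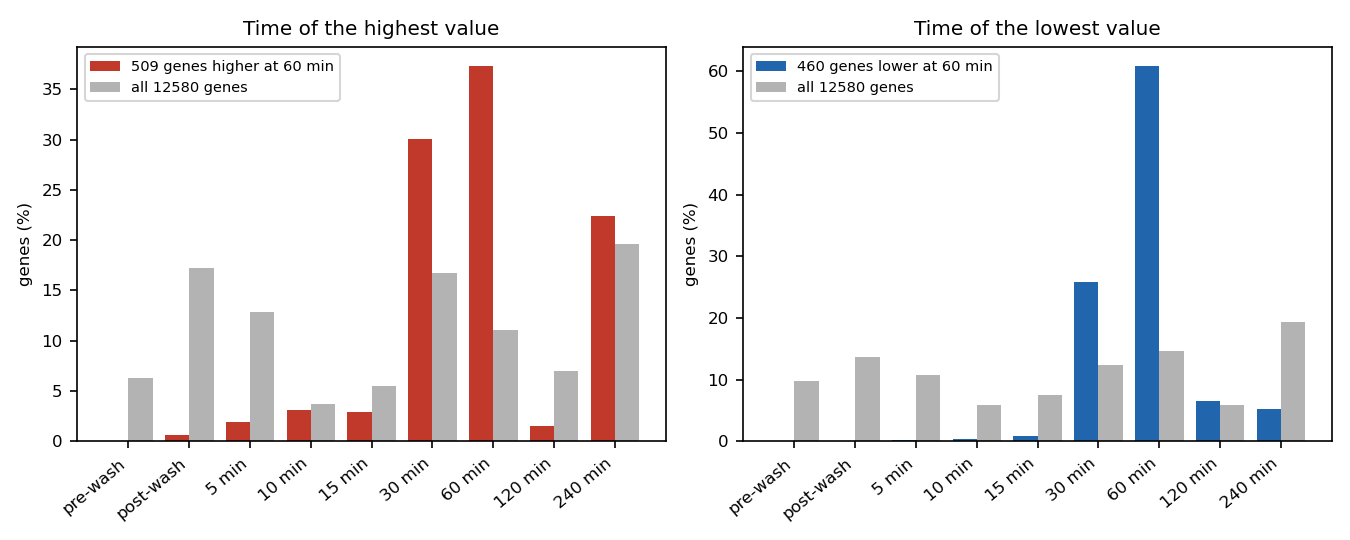
Share of genes, in percent, with their highest value (left) or lowest value (right) at each of the 9 times, for the genes 2-fold higher (red, 509) or lower (blue, 460) at 60 min and for all 12580 genes (grey). The share at 60 min is 37.3% on the left and 60.9% on the right, against 11.1% and 14.6% of all genes.

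The higher and lower genes were called from the 60 min and pre-wash columns, after a filter on low values that used all time columns. Those genes were also compared between 120 min and directly after the wash. The median log2 difference there was 0.85 for the higher genes and -1.18 for the lower genes, against 0.02 for all genes. Of the 509 higher genes, 207 (40.7%) were at least 2-fold higher at 120 min than directly after the wash, against 4.35% of all genes, and 18 were lower. Of the 460 lower genes, 275 (59.8%) were at least 2-fold lower, against 10.1% of all genes, and 2 were higher. The lower genes had a median of 15.9 FPKM directly after the wash and 10.7 FPKM before it. Their fall to 120 min therefore started above the growing level in the median. The samplings belong to 1 time course, so these columns are not independent experiments.

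Some genes 2-fold apart lay beside each other on the chromosomes. Among kept genes next to a higher gene, 15.4% were higher themselves, against 4.05% of all kept genes. Among kept genes next to a lower gene, 8.87% were lower, against 3.66%. The 66 adjacent higher pairs included IRT1 with IRT2, FEA1 with FEA2, SELW1 with SELW2, HSP22E with HSP22F and CBH1 with BKT1. The 31 adjacent lower pairs included SDH3 with SDH4 and HYDG1 with HYDEF1. Some such pairs are close copies of each other, and reads shared between copies were not examined.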

How the data were processed

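Per the labels' protocols, poly(A) RNA libraries were run on the Illumina HiSeq 2000 platform. STAR 2.4.1 and Cuffdiff 2.0.2 are named in the submitters' processing notes. The deposited table gives FPKM, 1 column per time, combined by the authors over 2 cultures. Library scaling and strand use are not stated. Another 9 value columns belong to other samples and were not used. Replicated tests, adjusted p-values and depth-based intervals could not be made. The planned linear model was replaced by a description by size.

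Differences are log2(FPKM + 1) at 60 min minus pre-wash, for genes that reached 1 FPKM in at least 2 columns. Symbols came from the table. RefSeq served only for neighbouring genes (17738 of 17741 identifiers matched). The members and lists were chosen with earlier results of these data known. The 8 added lists were made after their values were seen, and members whose product differed from the list were left out. Named genes are the 15 with a symbol and 3 without furthest each way at FPKM of 5 or more, the 5 furthest each way at FPKM of 500 or more, up to 4 members per list and all members of lists of up to 17. A gene that this rule names is not reported here. Other members named are those past 2-fold or given as exceptions. Alternatives were a pseudocount of 0.1, no filter, a minimum of FPKM 5, and median-of-ratios or quantile scaling. Simulated data were used to test the counting. Python 3.11.15, pandas 2.3.3 and numpy 2.4.6 were used.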

Additional observations from a re-analysis of the deposited data

How the results depend on the processing

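The count of 969 genes 2-fold apart was 1588 with a pseudocount of 0.1, where the lower genes numbered 853 in place of 460, and 124 with a 4-fold threshold, chosen after the data were seen. With no filter, a minimum of FPKM 5, quantile normalization or median-of-ratios scaling it ran from 816 to 994. Quantile normalization gave 471 higher and 523 lower genes, against 509 and 460, and no scaling moved the median of all genes by over 0.1. Of 160 named genes past 2-fold, 145 stayed so with quantile normalization and 156 with median-of-ratios scaling, and none changed direction. Lists with a median beyond 2-fold numbered 8 or 9 under every setting. No paired analysis was possible because the deposited values combine both cultures, and leaving out a culture was not possible for the same reason. Depth is unknown, so no limit for weakly expressed genes can be given.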
